A study of Mus musculus with 6 samples.

Results

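The genes described here encode the nuclear-encoded subunits of the mitochondrial respiratory chain and the ATP synthase. They were chosen by name: protein-coding genes whose symbols start with Ndufa, Ndufb, Ndufc, Ndufs, Ndufv, Uqcr, Cox4i, Cox5, Cox6, Cox7, Cox8 or Atp5, with Sdha, Sdhb, Sdhc, Sdhd and Cyc1, and without the Ndufaf assembly factors. The rule gave 89 of 21887 protein-coding genes, with 41 in complex I, 4 in complex II, 9 in complex III, 18 in complex IV and 17 in complex V. The rule reads gene names only. Complexes were also assigned by symbol, so every Nduf gene, Ndufa4 and Ndufa4l2 among them, was counted in complex I. The complex that each protein joins was not checked.

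The chain sits in the mitochondrial inner membrane. Complex I (NADH dehydrogenase) and complex II (succinate dehydrogenase) pass electrons through ubiquinone to complex III (cytochrome bc1) and then, on cytochrome c, to complex IV (cytochrome c oxidase). Complexes I, III and IV pump protons, and complex V (ATP synthase) uses the gradient to make ATP. Except for complex II, a small part of each is made from mitochondrial DNA, and most subunits come from nuclear genes spread over many chromosomes. Lymphocytes cultured with IL-2 are known to enlarge their metabolic machinery. Trimethylation of histone H3 at lysine 4 (H3K4me3) marks nucleosomes around the start sites of active or poised genes.

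The study compared natural killer (NK) cells from the spleens of wild-type mice (WT: Tcf7+/+, strain B6) and of mice lacking Tcf1, the transcription factor that Tcf7 encodes (KO: Tcf7-/-, strain B6.129 Tcf7Tm1Cle). Both were kept for 5 days in 500 ng/mL IL-2, fixed for 10 min in 1% formaldehyde and used for chromatin immunoprecipitation and sequencing with antibodies to Tcf1 or H3K4me3. The 6 samples form 6 groups of 1: an input, a Tcf1 and an H3K4me3 library of each genotype. The 4 antibody peak lists are used below and the inputs were not analysed here. No difference between the genotypes has a replicate check, so no test was made, and genotype, strain and library cannot be told apart.

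H3K4me3 peaks numbered 13771 in WT, covering 30353.7 kb with 6635272 tags. KO gave 11074 peaks, which covered 25123.9 kb with 7507763 tags. Tags per kb of called peak were therefore higher in KO, at 298.8 against 218.6. All 10 NK cell marker genes carried H3K4me3 in both libraries, and the 5 B cell and 6 myeloid marker genes carried it in neither. The centred ratios of the NK markers, on the scale given below, ran from -2.34 for Tyrobp and -1.20 for Klrd1 to 0.58 for Gzmb. In tags per kb these 3 were at -0.19, 0.23 and 0.49, with a called width at Tyrobp of 12523 bp in WT and 2729 in KO. Their part in the results was not tested. Of 6 T cell markers, Cd3e had 64 tags and Cd3d 35 in WT and no peak in KO, and the other 4 had no peak. Of 5 erythroid markers only Klf1 was marked, with 264 tags in WT and 227 in KO. A Tcf1 peak with 123 tags lay at the Tcf7 start site in WT, and no Tcf1 peak lay in Tcf7 in KO. For each gene, tags were summed over the H3K4me3 peaks that reached within 1 kb of a start site. This could be done for 88 of the 89 genes, and for 21749 protein-coding genes in all. Ndufb4c, a copy of Ndufb4, was left out because its strand is not given in the sources used here and an H3K4me3 peak lay at the gene. Genes without a strand were left out where an H3K4me3 peak lay within 2.5 kb of either end (138 genes). Those with no such peak were kept as unmarked (1641 genes), so this choice depended on the mark.

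Promoters of some common and restricted subunits are shown first, as examples of marked and unmarked genes. Cox8a and Cox7a2 are the common forms of their cytochrome c oxidase subunits, and Cox8b and Cox7a1 are forms known from heart and skeletal muscle. The 250 bases before each start site are given from RefSeq (build GRCm38.p6), 5′ to 3′ in the sense of the gene, with every CG dinucleotide in capitals.
Cox8a (chr19:7217617-7217866, minus strand): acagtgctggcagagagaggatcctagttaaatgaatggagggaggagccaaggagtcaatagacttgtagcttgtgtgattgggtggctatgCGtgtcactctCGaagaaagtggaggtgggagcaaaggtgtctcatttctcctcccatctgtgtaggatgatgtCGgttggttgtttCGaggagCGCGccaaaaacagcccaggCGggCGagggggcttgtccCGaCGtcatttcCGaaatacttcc
Cox8b (chr7:140900447-140900696, minus strand): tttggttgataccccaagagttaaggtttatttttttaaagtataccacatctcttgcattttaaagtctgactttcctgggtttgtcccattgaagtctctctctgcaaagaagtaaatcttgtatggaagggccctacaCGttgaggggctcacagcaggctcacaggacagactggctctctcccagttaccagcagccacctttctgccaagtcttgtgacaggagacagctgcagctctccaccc
Cox7a2 (chr9:79759854-79760103, minus strand): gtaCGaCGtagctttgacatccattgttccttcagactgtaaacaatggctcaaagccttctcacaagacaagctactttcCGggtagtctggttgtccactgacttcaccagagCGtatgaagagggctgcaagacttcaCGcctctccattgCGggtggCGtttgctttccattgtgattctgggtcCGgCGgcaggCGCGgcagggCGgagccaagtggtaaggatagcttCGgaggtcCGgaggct
Cox7a1 (chr7:30183921-30184170, plus strand): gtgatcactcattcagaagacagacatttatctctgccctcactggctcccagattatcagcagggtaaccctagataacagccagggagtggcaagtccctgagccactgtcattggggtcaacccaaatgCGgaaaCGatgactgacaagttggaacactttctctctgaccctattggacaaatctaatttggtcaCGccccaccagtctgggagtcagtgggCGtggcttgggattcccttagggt
CG dinucleotides numbered 11 before Cox8a and 1 before Cox8b, and 14 before Cox7a2 and 4 before Cox7a1. Cox8a and Cox7a2 were marked in both libraries, and Cox8b and Cox7a1 in neither.

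H3K4me3 lay at the start sites of nearly all respiratory chain genes in both genotypes. Of the 88 measured genes, 80 (90.9%) were marked in WT and in KO, where 47.1% of all protein-coding genes were. None of the 88 was marked in WT alone (5.83% of all genes) or in KO alone (0.166%). The other 8 were marked in neither library (46.9% of all genes). All of complex II (4), complex III (9) and complex V (17) was marked, together with 39 of 40 measured complex I genes and 11 of 18 complex IV genes. The 1 unmarked gene counted in complex I was Ndufa4l2, placed there by its symbol.

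The 8 unmarked genes were Ndufa4l2, Cox4i2, Cox6a2, Cox6b2, Cox7a1, Cox7b2, Cox8b and Cox8c. Each is a tissue-restricted or hypoxia-linked form of a subunit that also has a common form. Cox6a2, Cox7a1 and Cox8b are known from striated muscle, Cox6b2, Cox7b2 and Cox8c from testis, Cox4i2 from lung, and Ndufa4l2 as a gene induced in low oxygen. The common form was marked in both libraries in every case. Cox4i1 had the highest level of these, with 1339 tags in WT and 1613 in KO. Cox6a1 followed with 698 and 920 tags, and Cox8a with 553 and 748. Ndufa4 had 415 and 492 tags, Cox6b1 332 and 503, and Cox7a2 330 and 455. Cox7b, on the X chromosome, had the fewest, at 141 and 192. All 7 values were higher in KO before scaling, and their order was not the same in both libraries, since Ndufa4 lay above Cox6b1 in WT and just below it in KO. Cox6b1 and Cox7a2 were within 2 tags of each other in WT.

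**Figure D1:**
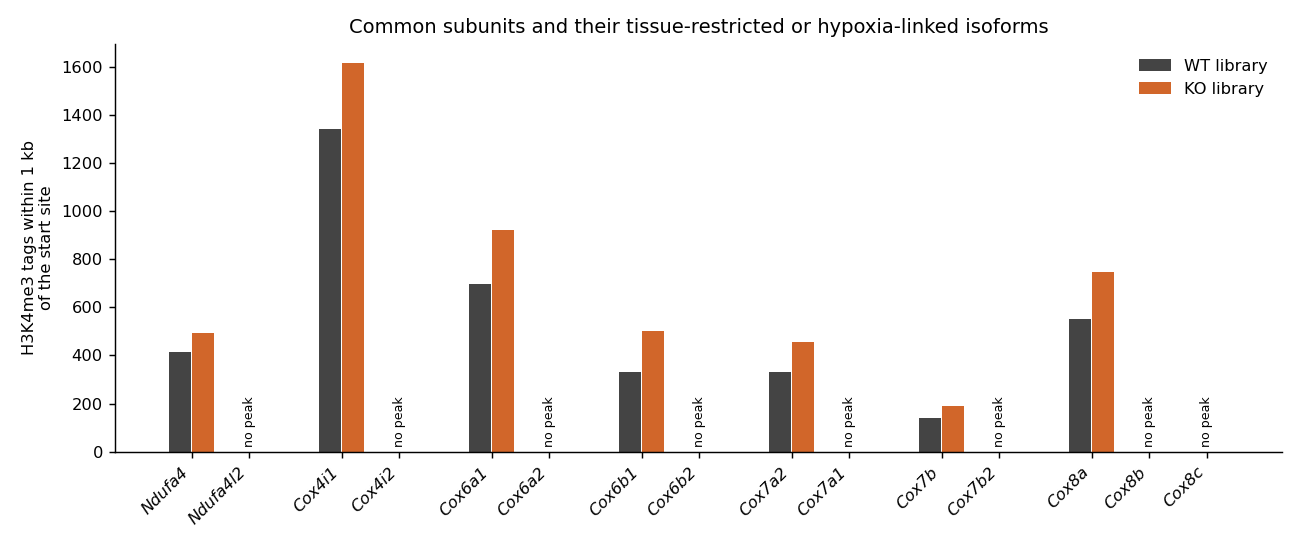
Summed H3K4me3 tags within 1 kb of the start site (vertical axis, tag count) for common subunits and the restricted forms beside them, with 1 bar for the WT library and 1 for the KO library. The 7 common forms reach from 141 to 1613 tags, and the 8 restricted forms have no peak in either library.

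The nearest peaks to most unmarked genes lay far from them. For Cox4i2 the nearest WT peak began 62432 bp from the gene, and for Cox6a2 30433 bp. Distances in WT were 20256 bp for Cox8c, 15529 bp for Cox8b, 10114 bp for Cox6b2 and 7154 bp for Cox7a1. Cox7b2 held a peak of 33 tags inside the gene, 21672 bp from its start site, in WT only.

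Ndufa4l2 was different, because a peak lay within the gene in both libraries. RefSeq places the gene at chr10:127509274-127517154, with annotated starts at 127509274 and 127514939. The WT peak covered 127511455 to 127513197 with 220 tags, and the KO peak covered 127511248 to 127512682 with 138 tags. Both peaks lay between the annotated starts, 1742 bp from the nearer start in WT and 1974 bp in KO, and so outside the 1 kb window. Scaled as described below, the log2 ratio of KO to WT was -0.94, with a counting interval from -1.25 to -0.63. It was -0.71 in tags per kb. It is lower than the ratio of any of the 80 marked genes, and which start the peak belongs to was not tested.

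Ndufb4c also carried a peak in both libraries. It covered the whole short gene, and held 56 and 85 tags. Its relative Ndufb4b (chr19:25033108-25033578) was lowest of the 80 marked genes, at 53 and 73 tags. Ndufb4 itself had 399 and 494. Reads from these similar sequences may not have been told apart, so the levels of Ndufb4b and Ndufb4c are uncertain.

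Levels at the marked genes were moderate. In these bulk samples a mark in fewer cells and fewer marked nucleosomes per cell cannot be told apart. The 80 genes ranged from 53 to 1713 tags in WT, with a median of 484.5, and from 73 to 2033 in KO, with a median of 645.5. The medians over all 10235 genes marked in both libraries were 560 and 681. In WT, 30 of the 80 lay above that all-gene median. By complex, the WT medians were 426 tags for complex I, 471.5 for complex II, 578 for complex III, 543 for complex IV and 619 for complex V. The interquartile ranges of these groups overlapped: complex I ran from 333 to 569 tags between its quartiles and complex V from 411 to 845. The libraries ranked the genes alike, with a Pearson correlation of log2 tags of 0.98 across the 80 genes (0.96 over all marked genes). The genes share their libraries and are not independent replicates.

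**Figure D2:**
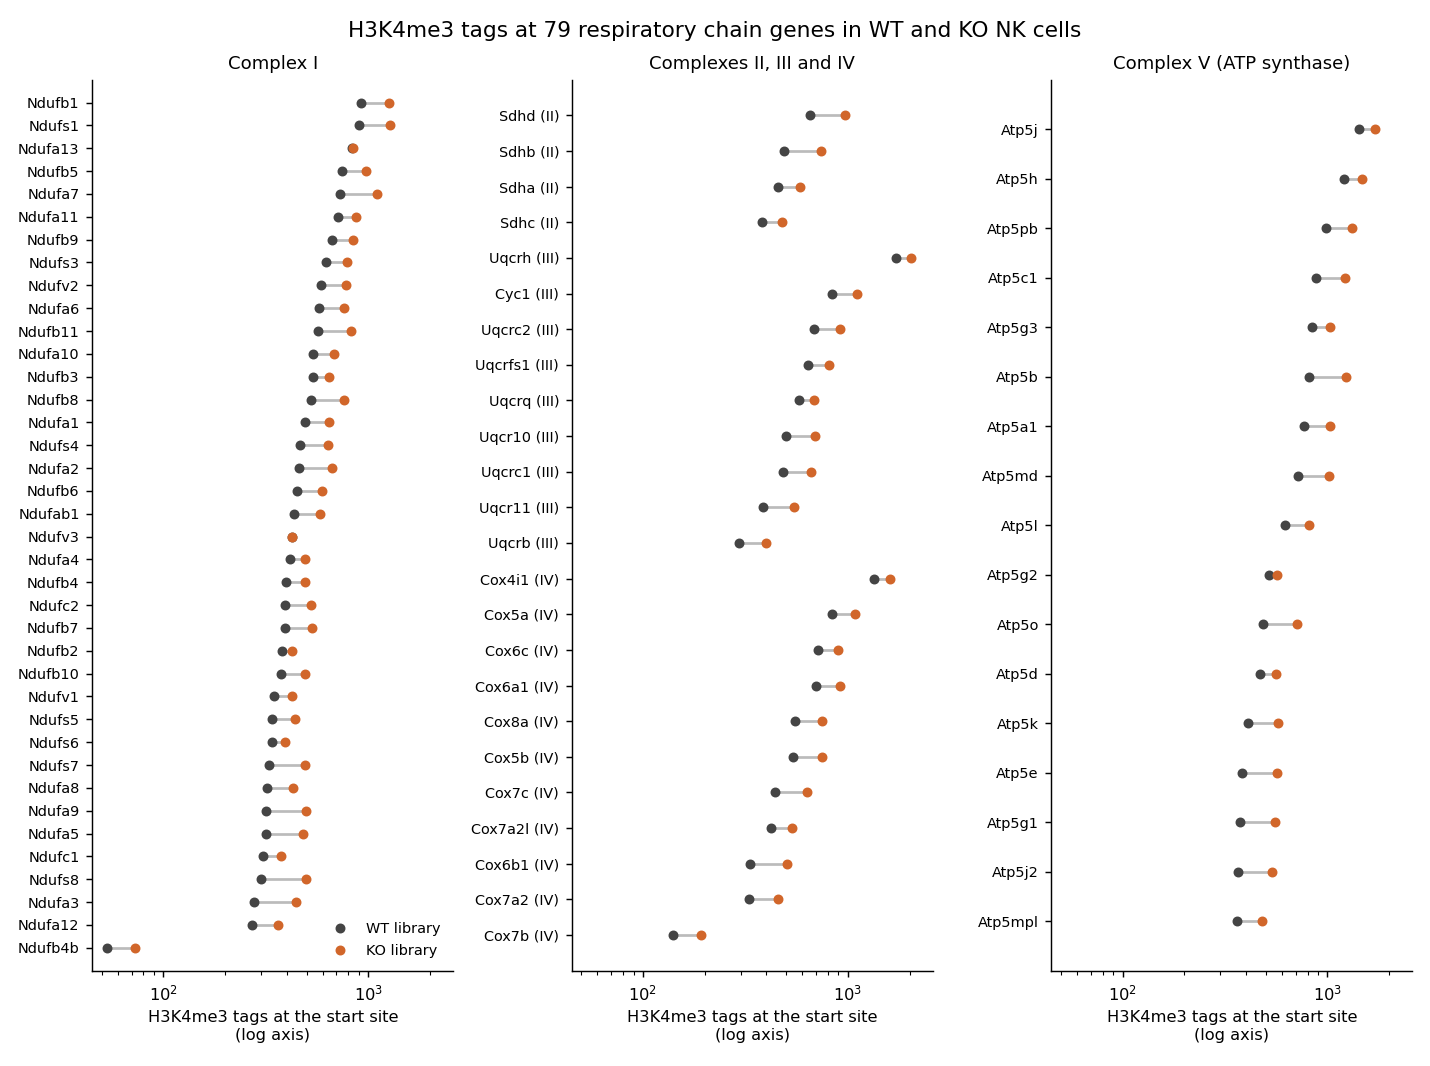
H3K4me3 tags at each of 79 of the 80 marked respiratory chain genes (tag count, log axis) in the WT and KO libraries, grouped by complex. Values run from 53 to 1713 in WT and from 73 to 2033 in KO, and Ndufv3 is the 1 gene with fewer tags in KO.

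In complex I, which takes electrons from NADH, the accessory subunit Ndufb1 had the most tags in WT, at 925, and 1261 in KO. Ndufs1, the large core subunit that carries iron-sulfur clusters, had 899 and was highest in KO, at 1283. Of the other core subunits, Ndufs3 had 622 and 785 tags, Ndufv2 590 and 777, Ndufv1 346 and 424, and Ndufs7 327 and 489. The core subunit Ndufs8 had 299 and 495. Of these core subunits Ndufv1, Ndufs7 and Ndufs8 lay below the WT median of the complex, 426 tags, and the others above it.

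In complex II, which oxidises succinate in the tricarboxylic acid cycle, the catalytic subunit Sdha had 455 tags in WT and 587 in KO. The iron-sulfur subunit Sdhb had 488 and 738. Of the membrane anchors, Sdhc had 383 and 479 tags and Sdhd 654 and 965. All 4 had more tags in KO, and Sdhd, which shares its promoter with Timm8b, was highest in both libraries.

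In complex III, Uqcrh, the hinge protein, had the most tags of all 80 genes at 1713 and 2033. It also had the widest peak, at 4033 bp in WT, and Lrrc41 starts in the same peak on the other strand. The catalytic subunits were lower: Cyc1, which is cytochrome c1, had 837 and 1104 tags, and Uqcrfs1, the Rieske iron-sulfur protein, had 637 and 808. Uqcrb was lowest of the complex with 294 and 398. The core proteins Uqcrc1 and Uqcrc2 lay between, with 483 and 659 and with 687 and 916.

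In complex IV, the 11 marked genes reached from Cox4i1 with 1339 and 1613 tags down to Cox7b. Cox5a had 833 and 1078, Cox5b 543 and 750, Cox6c 716 and 894, and Cox7c 443 and 634. Cox7a2l, a factor known to join complexes III and IV, had 423 and 533. All 11 had more tags in KO.

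In complex V, the genes of the catalytic head covered a range in WT. Atp5a1, the alpha subunit, had 767 tags, Atp5b, the beta subunit, 816, and Atp5c1, the gamma subunit, 883. In KO these had 1024, 1234 and 1218. The smaller head subunits were lower, with 469 and 564 tags at Atp5d (delta) and 382 and 565 at Atp5e (epsilon). Atp5j, a subunit of the stalk, was highest with 1419 and 1704 and shares its promoter peak with Gabpa, which encodes a factor that acts on respiratory genes. Atp5h, another stalk subunit, had 1207 and 1476. The genes Atp5g1, Atp5g2 and Atp5g3 encode the same c-ring protein, and they had 376, 518 and 845 tags in WT and 553, 570 and 1025 in KO. Atp5mpl was lowest of the complex with 361 and 478.

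Before scaling, 79 of the 80 genes had more tags in KO, with a median of 1.33 times the WT count. The exception was Ndufv3, a small complex I subunit, with 426 tags in WT and 425 in KO. Over all genes marked in both libraries the median was 1.2 times, so each log2 ratio of KO to WT tags was centred by subtracting 0.27, the all-gene median. The median centred ratio of the 80 genes was 0.15, and 70 (87.5%) lay above 0, where 50% of all genes do. Their ratios ran from -0.27 to 0.46 with an SD of 0.14, against 0.30 over all genes. No gene passed 0.5 in size: 0 of 80 lay above 0.5 (1.37% of all genes) and 0 below -0.5 (6.39%).

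The counting error of 1 gene sets a scale for these ratios: its median was 0.09 as a standard error in log2 units. A 95% Poisson interval, which covers counting error only and not the spread between animals or libraries, lay above 0 for 33 of the 80 genes (41.3%, against 19.3% of all genes). It lay below 0 for 2, Ndufv3 and Ndufa13 (22.3% of all genes). The members' median depended on the scale: it was 0.10 in tags per kb of peak, with 53 of 80 above 0, and 0.24 with the libraries scaled to all tags in peaks. On that last scale the all-gene median was 0.09.

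All 5 complexes had a median above 0. It was 0.13 for complex I (33 of 39 above 0), 0.20 for complex II (4 of 4) and 0.15 for complex III (7 of 9). It was 0.17 for complex IV (11 of 11) and 0.16 for complex V (15 of 17). In tags per kb the medians were 0.05, 0.11, 0.08, 0.19 and 0.10. Within a complex the ratios in tags had an SD of 0.09 (complexes III and IV) to 0.16 (complex I). Differences between the complexes were not tested.

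**Figure D3:**
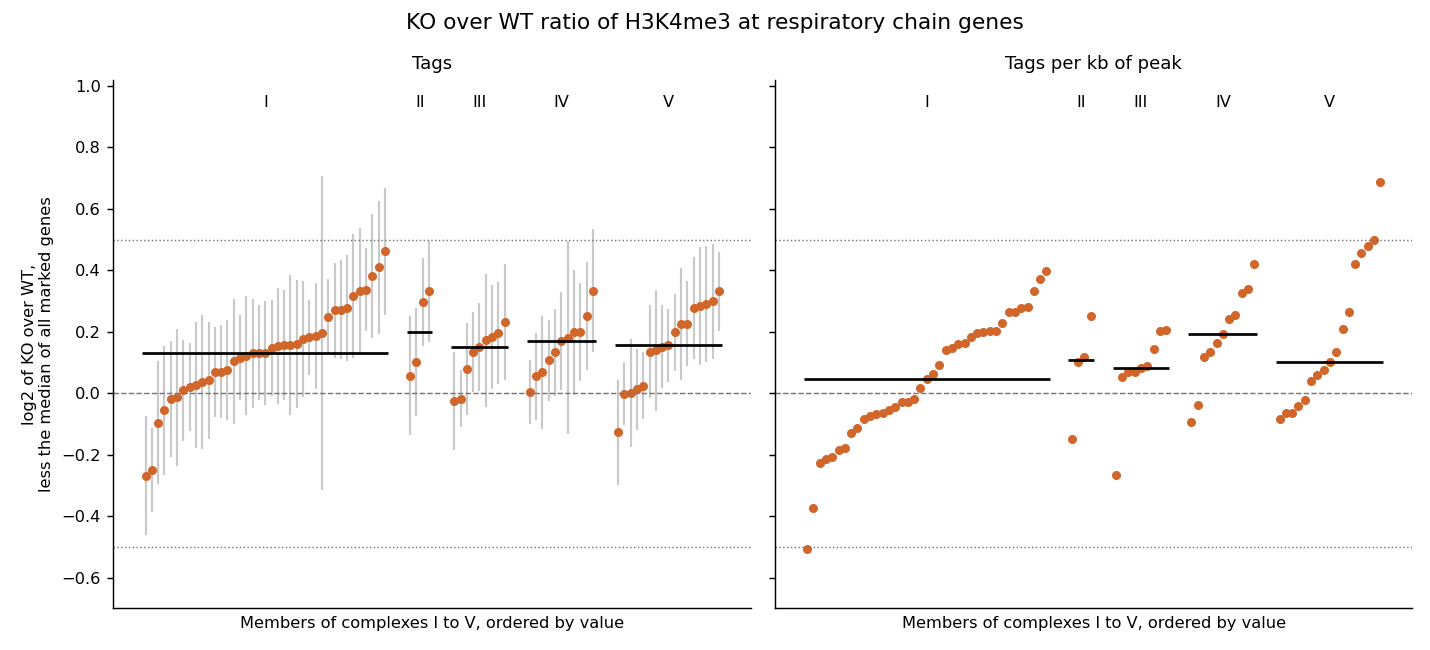
Log2 ratio of KO to WT H3K4me3 at the 80 marked genes, less the median of all 10235 marked genes, in tags (left, with 95% counting intervals) and in tags per kb of peak (right), by complex I to V. Short black lines are the medians, which lie between 0.13 and 0.20 in tags and between 0.05 and 0.19 in tags per kb, and dotted lines mark 0.5 and -0.5.

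The highest ratios were mostly in complex I, which holds 39 of the 80 marked genes. Ndufs8, a core iron-sulfur subunit, had 299 tags in WT and 495 in KO, a ratio of 0.46 (counting interval 0.25 to 0.67). Ndufa3 had 278 and 444 tags and a ratio of 0.41, and Ndufa9, an accessory subunit needed for assembly, had 318 and 498 and a ratio of 0.38. Ndufa7, which shares its promoter with Rps28, had 725 and 1100 and a ratio of 0.34. Cox6b1 of complex IV had a ratio of 0.33. Among the rest, Ndufa5, Sdhb and Atp5b also had ratios of 0.33. In tags per kb Ndufs8, Ndufa3, Ndufa9 and Ndufa7 had 0.37, 0.33, 0.40 and 0.26, and Cox6b1 had 0.14. Sdhb turned to -0.15 on that scale, its width being 1561 bp in WT and 2096 in KO.

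The lowest ratios were also mostly in complex I. Ndufv3 had a ratio of -0.27 (-0.46 to -0.07), but 0.02 in tags per kb, with called widths of 2097 and 1655 bp. Ndufa13, also known as Grim19, had 835 and 844 tags and a ratio of -0.25 (-0.39 to -0.11), and -0.37 in tags per kb, and Tssk6 starts in the same peaks. For Atp5g2 the counts were 518 and 570 and the ratio -0.13, for Ndufb2 378 and 425 and -0.10, and for Ndufs6 339 and 392 and -0.06. The intervals of these last 3 included 0. The direction for Atp5g2 turned with the peaks counted: its ratio was 0.48 in tags per kb and 0.11 where only peaks covering the start site were summed.

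The members' median lay above that of all genes at each level of the mark. With all marked genes divided at WT counts of 347, 560 and 866, the members' median ratios were 0.18 (17 genes), 0.16 (33), 0.13 (22) and 0.09 (8) from the lowest to the highest group. Over all genes the medians were -0.01, 0.05, 0.01 and -0.04. The WT count is also the denominator of the ratio, so no trend across the groups is read from these values.

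Peak widths were ordinary. The median summed width was 2139 bp in WT and 2101 bp in KO, against 2328 and 2232 bp over all marked genes. Uqcrh at 4033 bp, Ndufb11 at 3387 bp and Atp5b at 3252 bp were widest in WT. Ndufb4b at 929 bp, Ndufc1 at 1306 bp and Ndufs4 at 1469 bp were narrowest. None of the 80 reached 5 kb, a width that 455 of all 10235 marked genes passed in WT. Centred width ratios went beyond 0.5 for 2 genes. Ndufs7 covered 1703 bp in WT and 2362 bp in KO, a ratio of 0.52 (0.586% of all genes above 0.5). Atp5g2 covered 2803 bp in 2 WT peaks and 1771 bp in 1 KO peak, a ratio of -0.61 (2.63% below -0.5). In tags per kb, Atp5g1 had a ratio of 0.69 (1.39% above 0.5), its width being 2833 bp in WT and 2071 in KO. Ndufb2 had -0.51 (5.39% below -0.5), with 1542 and 1972 bp. Called width enters all of these ratios by definition, as the ratio itself or as the divisor of the tags.

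Many of the marked genes share a promoter region with a neighbour. A protein-coding gene on the other strand started within 1 kb of 29 of the 80 (19.6% of all marked genes have such a partner). These 29 had a WT median of 665 tags over 2727 bp, and the other 51 had 423 tags over 1898 bp. The difference was on the upstream side. With a partner, WT peaks reached a median of 1258 bp upstream and 1329 bp downstream of the start site, and without one 665 and 1282 bp. The downstream arm was the longer in 16 of 29 genes with a partner and in 47 of 50 without. Over all marked genes it was longer in 45.4% and 91.8%. Arms were measured where the WT peaks covered the start site, in 79 of the 80 genes. The median ratio was 0.13 with a partner and 0.15 without, where over all marked genes it was 0.07 and -0.02. Tags at a shared promoter belong to both genes and cannot be told apart.

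**Figure D4:**
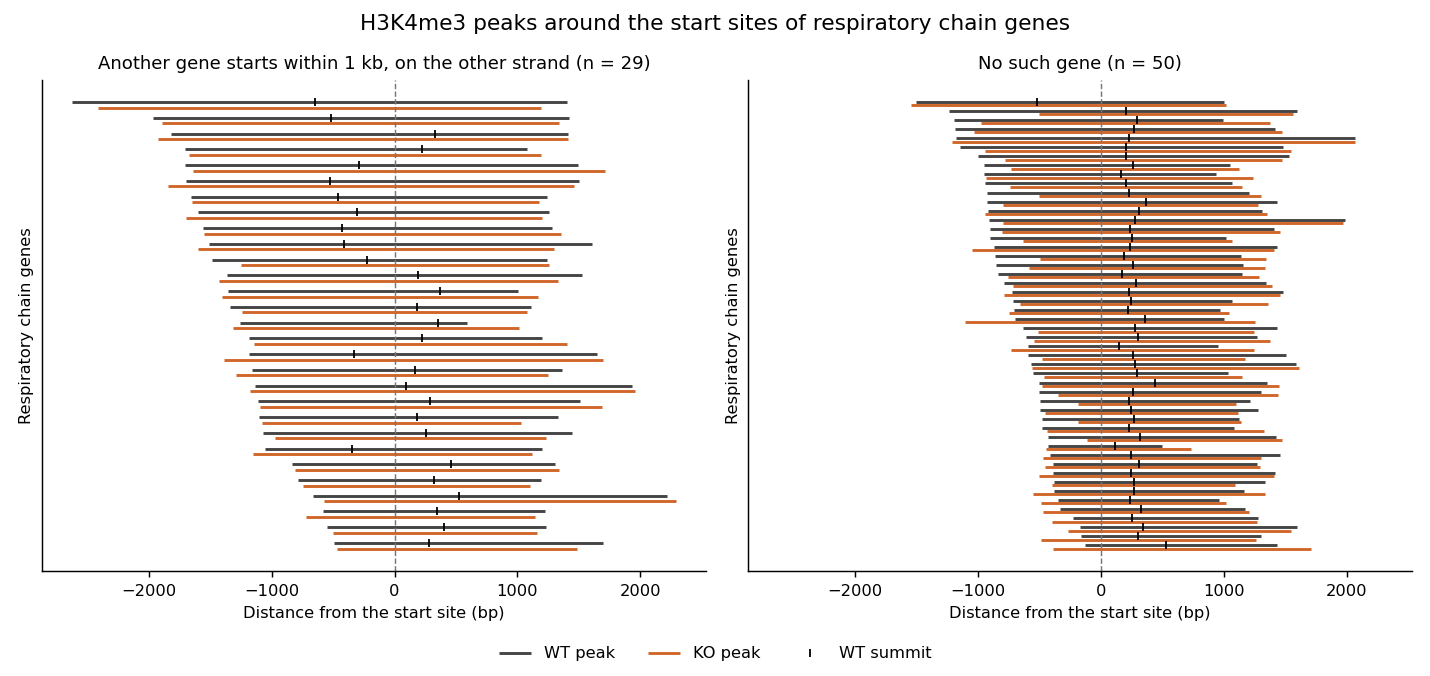
Extent of the H3K4me3 peaks around the start site (horizontal axis, bp, with the gene running to the right) for the 79 genes whose start is covered, in WT and KO, with the WT summit as a tick. Peaks of the 29 genes with a partner reach a median of 1258 bp upstream in WT, and those of the 50 without reach 665 bp.

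Promoter sequence was then compared with the marks. RefSeq promoters, from 250 bases before to 50 after the start, were at hand for 71 of the 89 genes (76 promoters, build GRCm38.p6). The 72 promoters of marked members had a median of 19.5 CG dinucleotides (5 to 43), and the 4 of unmarked members (Cox6b2, Cox7a1, Cox7b2 and Cox8b) had 8.5 (2 to 10). The median was 22 over all promoters marked in both libraries and 13 over all promoters. GC content was 58.5% in marked and 50.8% in unmarked members.

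Factors long known to act on respiratory genes are NRF1, the ETS factor GABP, YY1 and the estrogen-related receptor ERR. Each motif was searched on both strands. The NRF1 motif, a GC-rich palindrome of 10 bases, was in 6.94% of the marked members' promoters, 2.32% of all marked promoters and 1.33% of all promoters. With 1 of its middle bases free, a form that includes the first, it was in 18 of 72 (25%), against 11.2% and 6.38%. The ETS motif CCGGAAG was in 17 (23.6%), against 20.1% and 11.6%. The YY1 motif AANATGGC was in 17 (23.6%), against 9.26% and 6.37%. The ERR motif TCAAGGTCA was in 2, those of Atp5g3 and Sdhd (2.78%, against 0.262% and 0.334%). None of the 4 unmarked promoters held any of these. At least 1 of the looser NRF1, ETS and YY1 motifs was in 45 of 72 (62.5%), against 35.1% of all marked promoters and 21.4% of all. A match is a run of letters and not a measured binding site.

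**Figure D5:**
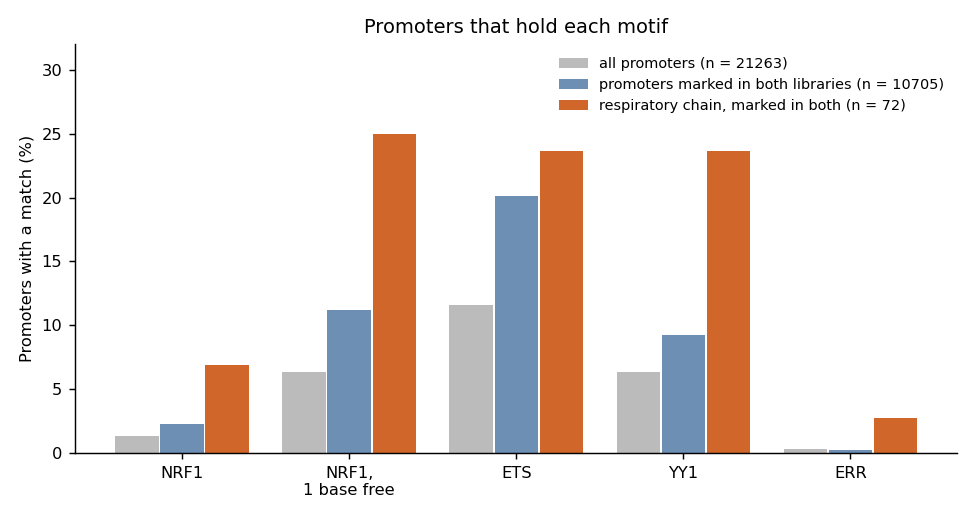
Percent of promoters (vertical axis) that hold each motif, for all promoters of the reference table, those marked in both libraries, and the 72 of marked respiratory chain genes. Among the latter the free-base NRF1 form is in 25%, YY1 in 23.6%, ETS in 23.6% and ERR in 2.78%.

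Sdha and Ndufb4 held the looser NRF1 motif 3 times each in the 250 bases before the start. The matches are in capitals.
Sdha (chr13:74350241-74350490, minus strand): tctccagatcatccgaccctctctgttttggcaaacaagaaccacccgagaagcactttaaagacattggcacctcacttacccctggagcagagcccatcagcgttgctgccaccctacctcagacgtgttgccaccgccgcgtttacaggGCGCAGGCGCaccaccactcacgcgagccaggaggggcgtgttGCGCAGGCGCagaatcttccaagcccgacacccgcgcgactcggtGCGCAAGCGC
Ndufb4 (chr16:37654369-37654618, minus strand): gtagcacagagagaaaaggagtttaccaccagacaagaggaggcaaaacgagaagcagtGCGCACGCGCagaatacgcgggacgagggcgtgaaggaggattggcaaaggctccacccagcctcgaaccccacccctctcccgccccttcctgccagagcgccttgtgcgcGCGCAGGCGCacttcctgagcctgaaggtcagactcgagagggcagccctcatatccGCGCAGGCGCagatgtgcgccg
Both genes were marked in both libraries, with 455 and 587 tags at Sdha and 399 and 494 at Ndufb4. Their centred ratios were 0.10 and 0.04.

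The YY1 letters lay on both sides of the start site. Of 18 matches in the members' promoters 10 (55.6%) were downstream of the start, against 45.7% of matches over all marked promoters and 39.1% over all. In 8 genes the match was downstream and on the strand of the gene, 22 to 38 bases from the start, and its letters were AAGATGGC each time. Such matches were 44.4% of the 18, and 34.5% of those over all marked promoters. These 8 are shown with the match in capitals, cut at the end of the window where it comes close.
Atp5j2 (chr5:145191503-145191526, minus strand): aggacttcAAGATGGCgtcactcg
Ndufa3 (chr7:3617387-3617410, plus strand): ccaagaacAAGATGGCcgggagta
Ndufa9 (chr6:126849100-126849123, minus strand): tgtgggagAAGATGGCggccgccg
Ndufb8 (chr19:44555393-44555412, minus strand): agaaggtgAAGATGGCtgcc
Ndufc1 (chr3:51408918-51408941, minus strand): tgcggaacAAGATGGCgccgtccg
Ndufs4 (chr13:114388045-114388067, minus strand): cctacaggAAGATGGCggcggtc
Ndufs6 (chr13:73328434-73328457, minus strand): tcaccggcAAGATGGCggcggtgc
Ndufs7 (chr10:80249465-80249488, plus strand): ccgaggccAAGATGGCggcgctgg
The letters AAGATGGC contain ATG, and whether this is the start codon of these genes was not tested. The 8 genes include 7 of complex I and Atp5j2 of complex V. Ndufs6 had the lowest ratio of these (-0.06) and Ndufa3 the highest (0.41). With a single promoter counted per gene, 15 marked genes with a YY1 match had a median ratio of 0.27 and a median of 367 WT tags. The 52 without had 0.14 and 487 tags. The WT count is also the denominator of the ratio, and medians by motif were not taken in tags per kb. Atp5j and Ndufa7, which hold a match in another of their promoters, are not among the 15. Counted in the same way, the medians with and without were 0.12 and 0.17 for the looser NRF1 motif, and 0.20 and 0.15 for ETS. Here Atp5c1 (looser NRF1) and Atp5j (ETS) hold a match only in a promoter that was not counted. These differences were not tested.

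The genes for the regulators themselves were nearly all marked. Of 13, 12 were marked in both libraries and Ppargc1a, which encodes the coactivator PGC-1alpha, in neither. Yy1 had 2700 tags in WT and 3050 in KO, Nrf1 1434 and 1590, and Gabpa, in the peak it shares with Atp5j, 1419 and 1704, with centred ratios of -0.09, -0.12 and 0.00. Tfam, which packages mitochondrial DNA, had 525 and 666 tags and a ratio of 0.08. Myc and Pprc1 were highest at 0.21 each, and in tags per kb they were at 0.20 and -0.03. The median of the 12 was -0.02 in tags and -0.03 in tags per kb, with 5 above 0 on each scale.

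Other lists of mitochondrial genes were marked as fully. The 46 assembly factors were all marked in both libraries, with a median ratio of 0.07 and 30 above 0. The 13 enzymes of the tricarboxylic acid cycle were all marked too, with a median of 0.06 and 11 above 0. The 78 genes of the mitochondrial ribosome had a median of 0.13, with 64 above 0 and 2 above 0.5, Mrpl54 at 1.4 and Mrpl27 at 0.51. For comparison outside mitochondria, 82 of 91 cytosolic ribosome genes were marked, with a median of 0.22, 80 above 0 and 3 above 0.5 (Rps9, Rpl3 and Rps4x). The respiratory chain median of 0.15 thus lay between those of the assembly factors and the cytosolic ribosome, where 50% of all genes are above 0. In tags per kb the medians were 0.05 for the assembly factors, 0.19 for the cycle enzymes, 0.09 for the mitochondrial and 0.18 for the cytosolic ribosome, and 0.10 for the respiratory chain. Ogdh, a subunit of the oxoglutarate dehydrogenase, was the 1 cycle enzyme above 0.5 on that scale, at 0.51. Mrpl54 and Mrpl27 were at 0.39 and 0.40 on it, Rps9 and Rps4x at 0.47 and 0.43, and Rpl3 at 0.66, so 4 of these 5 calls were lost. On the same scale 2 cytosolic ribosome genes were above 0.5, Rpl3 and another that was not above 0.5 in tags.

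The WT Tcf1 list was short, and few genes lay near its peaks, among the members as among all genes. Of 751 Tcf1 peaks called in WT with no overlapping KO peak, the list placed a peak within 50 kb of 2 of the 89 genes (2.25%, against 3.86% of all genes). Near Ndufs1 a peak at chr1:63114016-63114501 had 33 tags and lay 29.1 kb from the gene. Near Atp5h a peak at chr11:115399619-115400046 had 25 tags and lay 15.6 kb from the gene. Both had a false discovery rate above 20% in the deposited list (21.0% and 28.2%). Of the 115 WT peaks that overlapped a KO peak, 1 lay within 50 kb of a member, with 70 tags and 40.2 kb from Atp5g3 (1.12% of members, against 0.579% of all genes).

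The Tcf1 antibody list from KO cells was longer, and most of its peaks were weak. Its 5024 peaks with no WT overlap included 19 pairings with 15 members (16.9%, against 20.2% of all genes), with 10 to 36 tags each. Their false discovery rates in the deposited list were 68.9% to 100%. The members were Ndufs1, Ndufs3, Ndufs4, Ndufab1, Ndufb2, Ndufb4, Ndufb9, Sdha, Sdhd, Uqcrc2, Cox6a1, Cox7a2, Cox7b2, Atp5k and Atp5md. Peaks inside genes were seen for Ndufs1, Ndufab1 and Ndufs4. No Tcf1 peak of either list lay within 1 kb of the start site of a member.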

How the data were processed

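H3K4me3 and Tcf1 peaks of WT and KO splenic NK cells were used as deposited, with 1 library per group. Reads were single-end, 100 bases, from inserts of 100 to 400 bp, per the labels. Named without a role in the submitters' processing notes are MACS 1.4, Bowtie2 2.1.0 and the builds GRCh37, GRCm38 and mm10. Peak-calling settings and the control track are not given in the sources used here. Per the file headers, each deposited peak has a tag count, a score (−10 log10 of a p-value), a fold enrichment and an FDR in percent, all made by the authors.

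Members, gene lists, motifs and thresholds were chosen with earlier results of these data known. Members were matched by Entrez ID; 81 were listed in the WT and 80 in the KO H3K4me3 file. Atp5s and Atp5sl in the files are Dmac2l and Dmac2 in RefSeq and were not counted. Start sites came from RefSeq promoters (GRCm38.p6) for 71 members and from the strand in the files for 14. For 3 unmarked members either gene end could serve. Tags and widths were summed over peaks within 1 kb of a start, and log2 KO/WT ratios were centred on their median over all genes with peaks in both libraries. Intervals are 95% Poisson intervals. Peaks called separately differ in width, so tags per kb are given too. A gene counted as higher or lower beyond 0.5 on the log2 scale. Tcf1 peaks were counted within 50 kb of a gene.

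Genes named in the text were those not marked in both libraries, those beyond 0.5 by tags or tags per kb, the 5 highest and 5 lowest ratios, the most and fewest tags per complex, the 3 widest and 3 narrowest, those with Tcf1 peaks near, and the isoform pairs. From other lists, members beyond 0.5 in tags were named. The remaining subunits and the regulators were named after their values were seen, for their role. Some single genes are not reported here. Alternatives were the window, score and FDR limits, lists of equal length, merged regions, tags per kb, another centre, promoters without other genes, a threshold of 1, and Tcf1 distance. The software was Python 3.11.15, pandas 2.3.3, numpy 2.4.6, matplotlib 3.10.9 and scipy 1.17.1, and the ratio code was checked on simulated counts.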

Additional observations from a re-analysis of the deposited data

How the results depend on the processing

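No paired analysis was possible because each group held 1 library. For the same reason no library was left out. The number of members marked in both libraries was 79 to 81 over the 6 alternatives tried. Limiting peaks to an FDR of at most 1% lost Ndufb4b in KO, lists of equal length lost 1 member in WT, and a window of 2.5 kb added Ndufa4l2. The median centred ratio was 0.10 in tags per kb and 0.24 with libraries scaled to all tags in peaks, where the all-gene median was 0.09. It was 0.14 to 0.15 under the other alternatives. Members above 0 numbered 46 of 51 (90.2%) where no other gene started in the peaks, against 45.6% of all marked genes of that kind. In tags per kb 1 member was above 0.5 (Atp5g1) and 1 below -0.5 (Ndufb2), and with the other scaling 1 was above 0.5 (Ndufs8). With the 2.5 kb window 2 were below -0.5: Ndufa4l2 at -0.94 and Atp5d at -0.53, with 1042 tags in WT and 869 in KO. At 1 kb Atp5d was at 0.00. Signs of single genes differed most in tags per kb, at 25 of 80. Members near a WT-only Tcf1 peak numbered 0 of 89 at 10 kb, 4 at 100 kb and 0 with a score of at least 100. The share of all genes was not counted at these settings, so nothing is read from these 3 counts. The cause of the differences between settings was not tested.

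Depth limits the genes with few tags most: for Ndufb4b the interval ran from -0.31 to 0.71. Tags below the peak threshold are not in the lists, so an unmarked gene is one without a called peak.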
